A study of Mus musculus with 12 samples.

Results

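All but Ephb4 of the 10 genes described here mark arterial endothelium or carry Notch signalling in it. They are the receptors Notch1 and Notch4, the ligands Jag1 and Dll4, and the transcription factors Sox17 and Hey1. The others are the connexins Gja4 and Gja5, the ephrin ligand Efnb2 and its receptor Ephb4, a marker of veins. The 10 genes were taken by gene symbol from a table of 10655 genes measured in mouse aortic endothelial cells, and all 10 of 10 were present. RNA from these cells was sequenced with SMART-seq, a protocol that reads transcripts over their full length. The 12 libraries fell into 4 groups of 3, named by 2 diets: CD_CD, WD_CD, CD_WD and WD_WD. By the order of the group names in the series text, the diet named first is the mother's and that named last the offspring's; the titles alone do not state this order. CD_CD and WD_CD are thus offspring on CD, from mothers on CD or on WD, and CD_WD and WD_WD are offspring on WD, to whom WD was given again over 4 weeks. The sources used here give no genotype, strain, age, sex, sorting step or batch, and do not say whether replicates are separate animals. The p-values hence measure only how much these samples scatter, and that scatter may be technical.

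Notch receptors are cut after they bind a Delta-like or Jagged ligand on a neighbouring cell, and the freed intracellular part enters the nucleus and joins the DNA-binding protein RBPJ to switch on genes of the Hes and Hey families. In blood vessels Dll4, Notch1 and Notch4 act in the choice of arterial over venous identity, together with Sox17 upstream. EphrinB2, encoded by Efnb2, is a classical marker of arteries and EphB4 of veins, and connexins 37 and 40, encoded by Gja4 and Gja5, couple arterial endothelial cells through gap junctions.

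Promoter sequences of RefSeq on GRCm38.p6, from 250 bases before to 50 bases after the annotated start, were found for 8 of the 10 genes, all but Sox17 and Hey1. They were searched on both strands for the core letters TGGGAA of RBPJ, ACAAT of SOX factors, CCGGAA of ETS factors and the E-box CACGTG bound by Hey proteins; none of these overlap another within a promoter shown here. Only the SOX letters were found, once each in the promoters of Notch4, Jag1 and Gja4, and these 3 sequences are shown because they hold the matches. Capitals mark the SOX letters or their reverse complement. The Notch4 promoter lies at chr17:34564045-34564344 on the plus strand, the Jag1 promoter at chr2:137116471-137116770 on the minus strand and the Gja4 promoter at chr4:127313990-127314289 on the minus strand.
Notch4: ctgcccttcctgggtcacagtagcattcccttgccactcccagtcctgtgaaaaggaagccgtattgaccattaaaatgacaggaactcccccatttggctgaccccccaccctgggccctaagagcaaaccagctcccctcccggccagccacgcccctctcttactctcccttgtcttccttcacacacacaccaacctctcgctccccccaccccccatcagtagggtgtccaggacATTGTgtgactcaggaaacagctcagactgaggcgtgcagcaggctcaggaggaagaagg
Jag1: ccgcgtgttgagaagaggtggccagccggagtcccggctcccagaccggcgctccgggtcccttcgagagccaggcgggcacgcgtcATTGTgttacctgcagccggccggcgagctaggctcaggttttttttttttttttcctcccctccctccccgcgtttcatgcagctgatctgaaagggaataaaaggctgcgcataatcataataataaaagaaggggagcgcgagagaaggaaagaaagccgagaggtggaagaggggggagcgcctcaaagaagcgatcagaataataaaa
Gja4: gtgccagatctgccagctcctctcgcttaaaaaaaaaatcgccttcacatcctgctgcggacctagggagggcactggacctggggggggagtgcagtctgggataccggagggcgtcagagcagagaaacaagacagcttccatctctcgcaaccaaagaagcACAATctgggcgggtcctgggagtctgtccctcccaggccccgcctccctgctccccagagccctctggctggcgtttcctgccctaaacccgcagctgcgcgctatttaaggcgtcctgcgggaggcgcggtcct

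Among the promoters of 10480 genes of the table, 19.9% held the SOX letters, 22.6% the RBPJ letters, 27.7% the ETS letters and 10.02% the E-box. Among all 32851 promoters of the same length the shares were 31.0%, 25.6%, 14.9% and 7.15%. These matches describe letters in a short window and say nothing about binding. The match in Notch4 lies nearest to the start, with its first base at -10, against -86 in Gja4 and -163 in Jag1.

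Library depth ran from 4074413 to 19670570 reads in the genes of the table, and 1 read was worth 0.347 to 3.96 normalised counts, more in every library of WD offspring than in any of CD offspring. Markers shared by endothelial cells of all vessels (32 genes, among them Pecam1, Cdh5 and Tie1) averaged 10.43 to 11.15 on the log2 scale in the CD offspring, against 6.46 to 9.93 in those on WD. The WD libraries were lower in every case, and CD_WD replicate 1 was lowest. Of these 32 genes 24 fell in WD offspring and 0 rose (limma, averaged over mothers, adjusted p under 0.05). The median log2 difference of the 32 genes was -2.55. By the same rule 17.6% of all 10655 genes were lower and 20.1% higher. Smooth muscle markers fell too (12 of 14), as did 3 of 11 fibroblast, 4 of 4 pericyte and 3 of 4 lymphatic endothelial markers. Markers of blood cells rose: 8 of 14 of macrophages, 7 of 9 of MHC class II and dendritic cells, 7 of 12 of T and NK cells, 5 of 5 of B cells and 5 of 6 of neutrophils. The summed MHC class II and dendritic markers ranged from 10249 to 82893 normalised counts in CD offspring, against 359966 to 3728570 in the WD libraries, of which CD_WD replicate 1 was highest. The summed macrophage markers ranged from 11739 to 111332 in CD offspring, against 74857 to 1105340 in the WD libraries. No macrophage marker was at 0 in any library, while Flt3 was at 0 in CD_CD replicate 1 and WD_CD replicate 2. The part of these markers in the results below was not tested. In such bulk samples fewer cells of a type and less RNA per cell cannot be told apart.

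**Figure D1:**
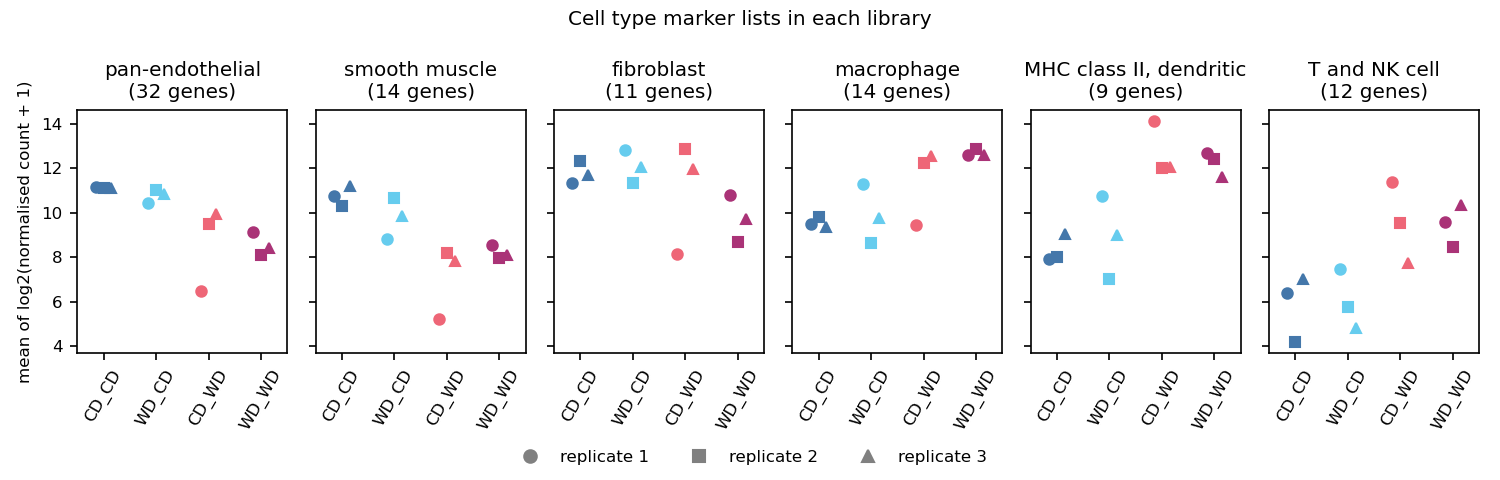
Mean log2(normalised count + 1) of 6 marker lists on the y axis, in each library of the 4 groups on the x axis; points are libraries. The pan-endothelial mean is at 10.43 to 11.15 with CD and at 6.46 to 9.93 with WD as the offspring's diet, while the MHC class II and dendritic mean is higher in every WD library than in any CD library.

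The diet of the offspring was compared first, since most of these genes differed between offspring on CD and on WD. Averaged over both kinds of mothers, 7 of the 10 genes fell in WD offspring and 0 rose (limma, adjusted p under 0.05): Notch1, Notch4, Jag1, Dll4, Efnb2, Ephb4 and Sox17. Hey1, Gja4 and Gja5 were lower in WD offspring on average but did not pass. Of all genes tested, 17.6% were lower and 20.1% higher by the same rule. The median log2 difference of the 10 genes was -2.82, against -0.02 over all genes. Most pan-endothelial markers fell too, as given above, with a median close to that of the 10 genes. The fall was thus not particular to the 10 genes. All 7 calls held with each of the 12 libraries left out singly. The same 7 genes had every WD library below every CD library, which held for 9.69% of all genes.

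**Figure D2:**
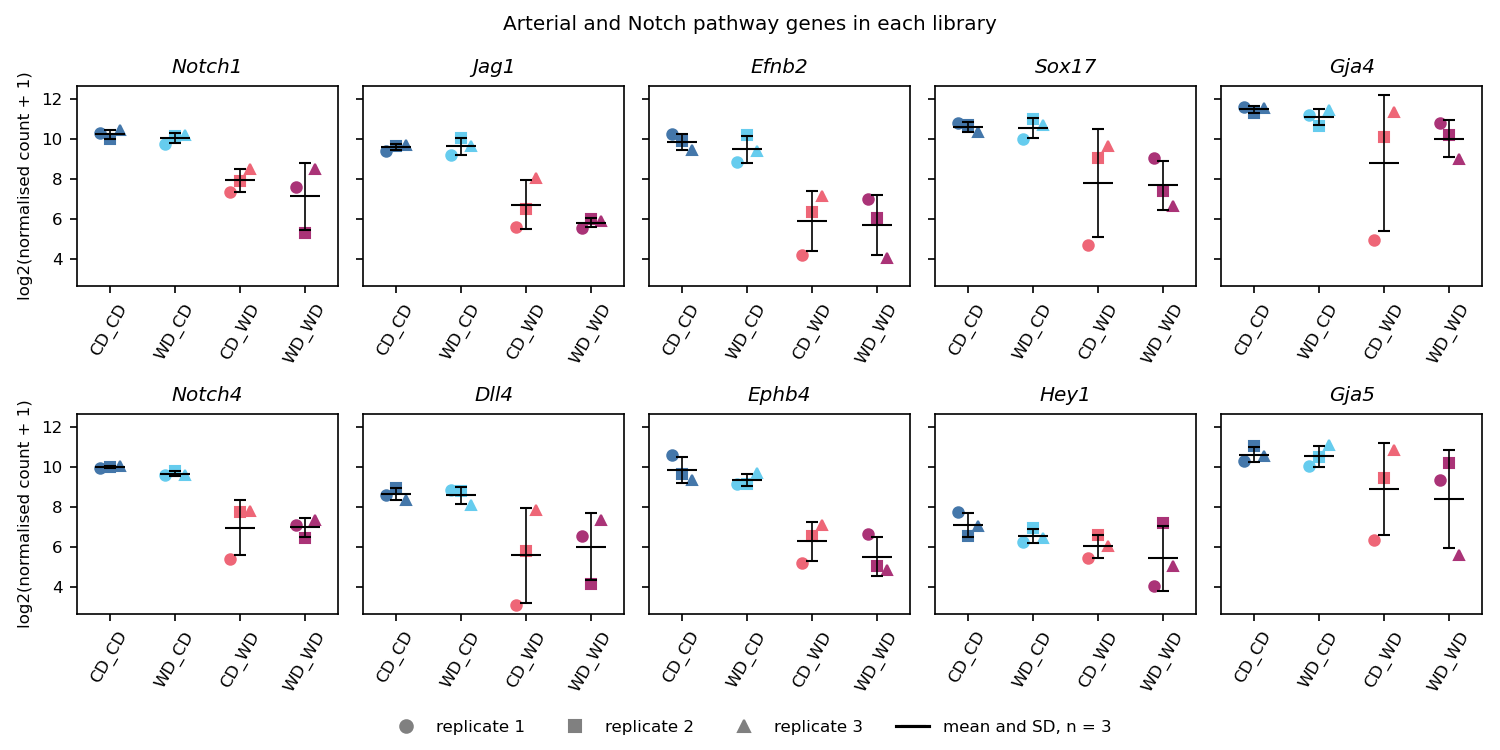
log2(normalised count + 1) of the 10 genes on the y axis in each library, with the 4 diet groups on the x axis; bars give mean and SD, n = 3. Notch1, Notch4, Jag1, Dll4, Efnb2, Ephb4 and Sox17 show no overlap between CD and WD offspring, and Hey1, Gja4 and Gja5 do.

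Notch1, a receptor of arterial endothelium (chromosome 2, 26457903 to 26516663, minus strand, GRCm38), had 1248, 1013 and 1380 normalised counts in CD_CD and 867, 1113 and 1184 in WD_CD. It had 165, 236 and 362 in CD_WD, against 193, 37.9 and 360 in WD_WD. The lowest CD library, at 867, was above the highest WD library, at 362, and WD_WD replicate 2 was the lowest of all. The mean of WD offspring was 5.02-fold below that of CD offspring, and the log2 difference was -2.61 ± 0.45 (SE, limma, adjusted p = 0.000894). With CD mothers the difference was -2.31 ± 0.64 (adjusted p = 0.0298), and this call was lost when any of the 3 CD_CD libraries or CD_WD replicates 1 or 2 was left out (adjusted p of 0.0668 to 0.0948). With WD mothers it was -2.91 ± 0.64 (adjusted p = 0.00763).

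Notch4 is the receptor found mainly on endothelial cells (chromosome 17, 34564268 to 34588503, plus strand). It had 960, 999 and 1031 normalised counts in CD_CD and 775, 881 and 758 in WD_CD. In CD_WD it had 40.6, 211 and 219, and in WD_WD 136, 86.4 and 162. Replicates in CD offspring lay close together, and CD_WD replicate 1 stood below the other WD libraries. The mean was 6.32-fold lower in WD offspring, with a log2 difference of -2.84 ± 0.40 (SE, limma, adjusted p = 0.000206). It passed with CD mothers (-3.00 ± 0.56, adjusted p = 0.00478) and with WD mothers (-2.68 ± 0.56, adjusted p = 0.00577), and with every library left out singly.

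Per kilobase of annotated exon, Notch4 and Notch1 were at 124 ± 4 and 85.3 ± 13.1 (SD, n = 3) in CD_CD. By this measure Notch4 was the higher of both receptors in these libraries. The same order was seen in WD_CD, at 99.8 ± 8.3 and 74.1 ± 11.7. In WD offspring the spread was wider than the gap, at 19.5 ± 12.5 against 17.9 ± 7.0 in CD_WD and 15.9 ± 4.8 against 13.8 ± 11.3 in WD_WD. The lengths used were all annotated exons, 8061 bases for Notch4 and 14232 for Notch1. Before this division Notch1 was higher in every library of CD offspring, so the order depends on the lengths chosen.

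Jag1, the ligand of the Jagged family found here (chromosome 2, 137081456 to 137116644, minus strand), had 676, 797 and 827 normalised counts in CD_CD and 590, 1058 and 804 in WD_CD. In CD_WD it had 48.2, 89.97 and 261. In WD_WD all 3 libraries were close, at 46.2, 62.2 and 59.4, which rested on only 18, 41 and 15 reads. The libraries of WD offspring from WD mothers thus lay within a narrow range that overlapped only the low end of CD_WD. The mean was 5.77-fold lower in CD_WD than in CD_CD and 14.6-fold lower in WD_WD than in WD_CD. These were log2 differences of -2.86 ± 0.55 (SE, limma, adjusted p = 0.0052) and -3.82 ± 0.55 (adjusted p = 0.000823), and the test of the difference between both, the interaction, gave -0.96 ± 0.78 (adjusted p = 0.997). Averaged over mothers, Jag1 was -3.34 ± 0.39 (adjusted p = 6.48e-05), the smallest adjusted p of the 10 genes.

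Dll4, the ligand of arterial and sprouting endothelium (chromosome 2, 119325784 to 119335962, plus strand), had 387, 484 and 325 normalised counts in CD_CD and 458, 445 and 269 in WD_CD. It was spread over a wide range in CD_WD, at 7.61, 54.4 and 227, and in WD_WD, at 92.5, 16.7 and 162. The lowest of these values, in CD_WD replicate 1, came from 3 reads. All 6 WD libraries were below the lowest CD library, although CD_WD replicate 3, at 227, was near it. The averaged log2 difference was -2.80 ± 0.74 (SE, limma, adjusted p = 0.0103), and -2.18 without CD_WD replicate 1, still past the threshold. Neither kind of mother gave a call alone, at -3.05 ± 1.04 with CD mothers (adjusted p = 0.0682) and -2.56 ± 1.04 with WD mothers (adjusted p = 0.0902). The first was smaller without CD_WD replicate 1 (-1.81, adjusted p = 0.212) and passed without CD_WD replicate 3 (-4.17, adjusted p = 0.0133) or WD_WD replicate 2 (adjusted p = 0.0461). The second was smaller without WD_WD replicate 2 (-1.62, adjusted p = 0.287) and passed without CD_WD replicate 1 (adjusted p = 0.024).

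Efnb2, the arterial ephrin ligand (chromosome 8, 8617434 to 8661242, minus strand), had 1203, 934 and 700 normalised counts in CD_CD and 459, 1183 and 668 in WD_CD. It had 17.7, 79.5 and 140 in CD_WD, against 128, 65.2 and 15.8 in WD_WD, the lowest resting on 4 reads. The 2 diets were far apart, with 459 as the lowest CD library and 140 as the highest WD library. The mean was 11.5-fold lower in WD offspring. The averaged log2 difference, -3.86 ± 0.58 (SE, limma, adjusted p = 0.000332), was the largest of the 10 genes, and it passed with CD mothers (-3.95 ± 0.82, adjusted p = 0.00748) and WD mothers (-3.77 ± 0.82, adjusted p = 0.00689).

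Ephb4, the receptor of EphrinB2 and a marker of veins (chromosome 5, 137350109 to 137378669, plus strand), was at similar levels: 1509, 785 and 651 normalised counts in CD_CD and 570, 564 and 825 in WD_CD. It had 35.5, 92.1 and 133 in CD_WD and 97.6, 31.8 and 27.7 in WD_WD. Every WD library was again below every CD library. The mean was 11.7-fold lower, and the averaged log2 difference was -3.70 ± 0.44 (SE, limma, adjusted p = 7.03e-05). With CD mothers it was -3.58 ± 0.62 (adjusted p = 0.00317) and with WD mothers -3.83 ± 0.62 (adjusted p = 0.00158). The arterial and the venous partner of this pair thus fell by amounts within 1 SE of each other. Calls for Efnb2 and Ephb4 held with every library left out singly, the averaged differences running from -4.19 to -3.44 for Efnb2 and from -3.98 to -3.43 for Ephb4.

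Sox17, a transcription factor of arterial endothelium (chromosome 1, 4490931 to 4497354, minus strand), had 1764, 1649 and 1283 normalised counts in CD_CD and 1017, 2031 and 1628 in WD_CD. In CD_WD it had 25.4, 536 and 787, and in WD_WD 524, 165 and 99.0. The diets did not overlap, and CD_WD replicate 1 was far below the other libraries of its group. The averaged log2 difference was -2.83 ± 0.71 (SE, limma, adjusted p = 0.00814), and -2.06 without CD_WD replicate 1, still past the threshold. It did not pass with CD mothers (-2.80 ± 1.01, adjusted p = 0.0806) or with WD mothers (-2.86 ± 1.01, adjusted p = 0.0552). The first was smaller without CD_WD replicate 1 (-1.26, adjusted p = 0.181) and passed without CD_WD replicate 3 (-3.71, adjusted p = 0.0255). The second passed without CD_WD replicate 1 (adjusted p = 0.00103), CD_WD replicate 3 (adjusted p = 0.0367) or WD_WD replicate 1 (adjusted p = 0.0425), and by DESeq2 on the recovered reads (adjusted p = 0.0112).

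Hey1, a repressor encoded by a direct Notch target gene (chromosome 3, 8663359 to 8667256, minus strand), was the lowest of the 10 genes per kilobase, at 44.0 ± 19.1 (SD, n = 3) in CD_CD. It had 212, 90.7 and 128 normalised counts in CD_CD and 75.5, 122 and 85.6 in WD_CD. In CD_WD it had 43.1, 96.2 and 64.6, and in WD_WD 15.4, 146 and 31.7, from 6, 96 and 8 reads. CD and WD offspring overlapped, since WD_WD replicate 2 exceeded all CD libraries but 1. The averaged log2 difference was -1.09 ± 0.58 (SE, limma, adjusted p = 0.155). It passed only without WD_WD replicate 2 among the libraries left out singly (-1.53, adjusted p = 0.0304).

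Gja4, which encodes connexin 37 (chromosome 4, 127311421 to 127314039, minus strand), was the highest of the 10 genes per kilobase, at 1697 ± 187 (SD, n = 3) in CD_CD. It had 3090, 2500 and 2991 normalised counts in CD_CD and 2296, 1601 and 2738 in WD_CD. In WD offspring it varied widely, with 30.4, 1078 and 2632 in CD_WD and 1798, 1165 and 515 in WD_WD. CD_WD replicate 3 stayed among the CD libraries, whereas CD_WD replicate 1 was far below the other libraries of its group. The averaged log2 difference was -1.87 ± 0.82 (SE, limma, adjusted p = 0.0903). Without CD_WD replicate 1 it was smaller and passed (-0.92, adjusted p = 0.0425), and it also passed without CD_WD replicate 3 (-2.51, adjusted p = 0.0156).

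Gja5, which encodes connexin 40 (chromosome 3, 96904693 to 97077416, plus strand), had 1243, 2083 and 1453 normalised counts in CD_CD and 1048, 1409 and 2161 in WD_CD. It had 81.1, 682 and 1820 in CD_WD and 650, 1156 and 47.5 in WD_WD. Both WD groups thus held a library within the range of CD offspring and a library far below it. The averaged log2 difference was -1.94 ± 0.80 (SE, limma, adjusted p = 0.0717), and it passed without CD_WD replicate 3 (-2.43, adjusted p = 0.0256) or WD_WD replicate 2 (-2.39, adjusted p = 0.0375). It was smaller without WD_WD replicate 3 (-1.25, adjusted p = 0.151). Gja5 and Gja4 had the largest standard errors of the 10 genes.

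With CD mothers alone 5 of the 10 genes fell (Notch1, Notch4, Jag1, Efnb2 and Ephb4), where 5.55% of all genes were lower, and the same 5 fell with WD mothers, where 10.2% were lower. All 10 log2 differences were below 0 in both comparisons. In CD_CD the order of the levels per kilobase was Gja4 (1697), Sox17 (328), Gja5 (277), Ephb4 (212), Efnb2 (138), Jag1 (132), Notch4 (124), Dll4 (103), Notch1 (85.3) and Hey1 (44.0). Within this order Sox17 and Gja5 differed by less than their SDs (52.7 and 76.1), and Efnb2, Jag1 and Notch4 lay within the SD of Efnb2 (36.7). In WD_WD the connexins and Sox17 were still highest, at 688 ± 381 for Gja4, 107 ± 96.5 for Gja5 and 55.1 ± 47.9 for Sox17, and Jag1 and Efnb2 were lowest, at 9.60 ± 1.46 and 10.2 ± 8.2.

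The exons of Notch1, Dll4, Ephb4, Sox17 and Gja5 overlap exons of another gene on the opposite strand in GENCODE M21, by 33 bases in Ephb4 to 1068 bases in Notch1. The handling of strand in the authors' counting is not given in the sources used here, so reads of these genes and their partners may be mixed. Notch4, Jag1, Efnb2, Hey1 and Gja4 have no such overlap.

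Since the endothelial markers themselves were lower in WD offspring, the 10 genes were also compared relative to them, by subtracting from each library the mean of its 32 pan-endothelial log2 values. This added the same 2.36 to the averaged difference of every gene and also changed the SEs. On this scale 64.5% of all genes rose while 0.422% fell. On this scale Efnb2 was the only one of the 10 genes that fell (-1.50 ± 0.64, SE, limma, adjusted p = 0.0437). Ephb4 (-1.34 ± 0.63, adjusted p = 0.0637) and Jag1 (-0.98 ± 0.62, adjusted p = 0.161) were next, and neither passed. Notch1, Notch4, Dll4 and Sox17, called at the deposited scaling, were at -0.25, -0.48, -0.44 and -0.47, with adjusted p of 0.447 to 0.73. Hey1, Gja4 and Gja5 turned to 1.27, 0.49 and 0.42, and did not pass.

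The Efnb2 level relative to the endothelial mean was -0.92, -1.26 and -1.65 on the log2 scale in CD_CD and -1.58, -0.80 and -1.47 in WD_CD. It was -2.23, -3.17 and -2.79 in CD_WD and -2.12, -2.06 and -4.32 in WD_WD. Efnb2 was the only one of the 10 genes for which all 6 WD libraries lay below all 6 CD libraries on this scale, which held for 0.375% of all genes. Its call was lost in 9 of the 12 fits that left out 1 library (adjusted p up to 0.114, without WD_WD replicate 3), where the difference stayed between -1.60 and -1.13, and was kept without CD_WD replicate 1 (-1.62, adjusted p = 0.0064), WD_WD replicate 1 (-1.68, adjusted p = 0.0339) or WD_WD replicate 2 (-1.69, adjusted p = 0.0317).

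CD_WD replicate 1 had the lowest endothelial mean of all libraries. Without it 1.05% of all genes fell and 61.4% rose on this scale, and 4 of the 10 genes passed: Efnb2, Ephb4 (-1.62 ± 0.39, SE, limma, adjusted p = 0.00231) and Jag1 (-1.25 ± 0.39, adjusted p = 0.0116) fell, and Gja4 rose relative to the endothelial markers (0.90 ± 0.32, adjusted p = 0.0245). Relative to the endothelial mean Gja4 was between -0.37 and 0.74 in the 6 CD libraries, with a median of 0.44. It was at 0.58 and 1.43 in CD_WD replicates 2 and 3, and at 1.67, 2.08 and 0.62 in WD_WD. In CD_WD replicate 1 it was at -1.49, below every other library, and the ranges of both diets overlapped even without that library. At the deposited scaling Gja4 was at -0.92 without that library, since the scalings differ by 1 amount for all genes.

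**Figure D3:**
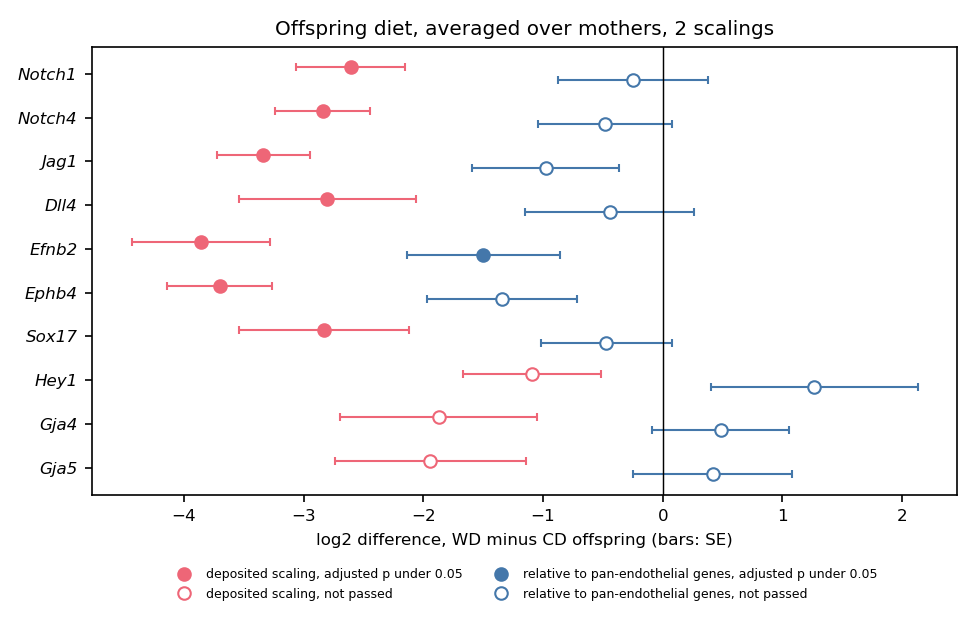
log2 difference between WD and CD offspring, averaged over mothers, on the x axis for the 10 genes on the y axis, at the deposited scaling and relative to the pan-endothelial genes; bars are SE, filled points passed. 7 genes passed at the deposited scaling and Efnb2 alone relative to the endothelial markers, at -1.50.

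Ratios between genes of like role were compared as a description, since they depend on the scaling of a library only through the 1 added to each normalised count. The log2 ratio of Efnb2 to Ephb4 ran from -0.33 to 1.07 in CD offspring and from -0.96 to 1.01 in WD offspring. The ranges of the arterial ligand to its venous receptor thus overlapped over most of their length. Dll4 to Jag1 ran from -1.58 to -0.36 in CD offspring and from -2.51 to 1.44 in WD offspring, the highest values being WD_WD replicates 1 and 3. Notch1 to Notch4 ran from 0.019 to 0.64 with the CD diet, and from -1.17 to 1.996 with WD. Gja5 to Gja4 ran from -1.31 to -0.18 and from -3.41 to 1.39 respectively. All 4 ratios overlapped between diets, and for Dll4 to Jag1, Notch1 to Notch4 and Gja5 to Gja4 the WD libraries reached beyond the CD libraries on both sides. Such extreme WD ratios rest on few reads. In CD_WD replicate 1 Dll4 and Jag1 had 3 and 19 reads, and Notch1 and Notch4 had 65 and 16. In WD_WD replicate 3 Gja5 and Gja4 had 12 and 130 reads. The part of counting noise in the wider range in WD offspring was not tested.

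**Figure D4:**
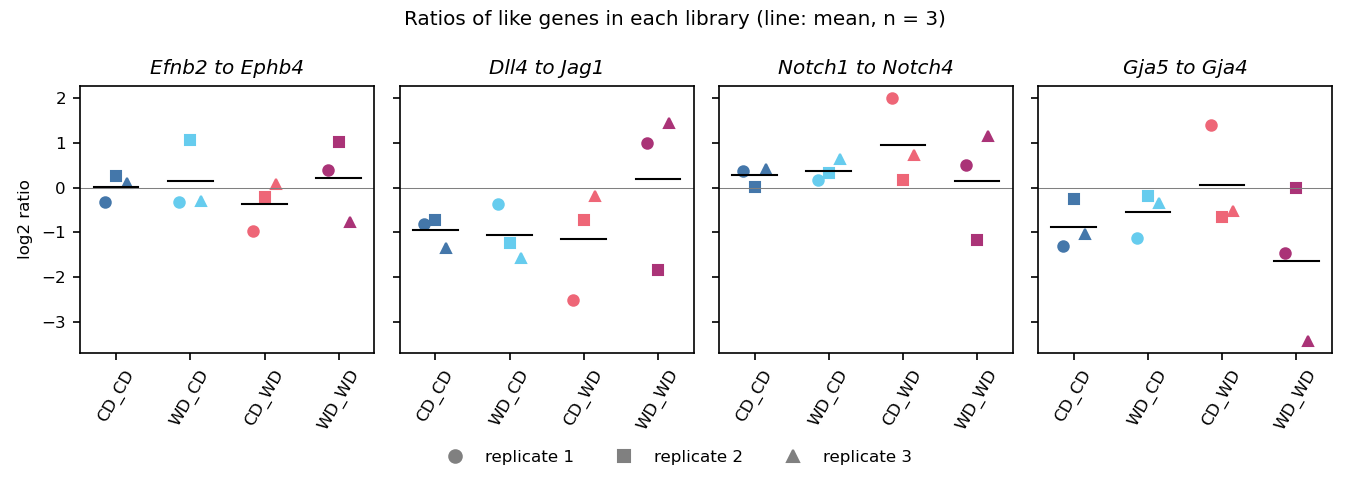
log2 ratios of 4 pairs of like genes (normalised count + 1 of each) on the y axis in each library of the 4 diet groups on the x axis; lines are means, n = 3. Each ratio overlaps between CD and WD offspring, and Gja5 to Gja4 runs from -3.41 to 1.39 in WD offspring.

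Across the 12 libraries Efnb2 and Ephb4 had the steadiest ratio of the 45 pairs, with an SD of 0.62 of the log2 ratio, followed by Notch4 and Jag1 (0.64) and Notch1 and Notch4 (0.74). The least steady was Dll4 to Hey1, at 1.94. Both genes of a pair are read from the same library, with its depth, scaling and cell makeup, so a steady ratio is a description only. By the same measure over 9942 genes with a mean of at least 50, the gene most like each member was Hdac7 for Notch1 (SD 0.38), Fn1 for Notch4 (0.34), Gnaq for Jag1 (0.39), Fstl1 for Dll4 (0.54) and Sox7 for Efnb2 (0.45). For the others it was Nrbp2 for Ephb4 (0.42), Gxylt2 for Sox17 (0.21), Hiatl1 for Hey1 (0.51), Htra1 for Gja4 (0.45) and Sorbs3 for Gja5 (0.49).

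Other genes of the Notch pathway, taken from lists, were then read beside the 10 genes for the averaged offspring diet, where 17.6% of all genes were lower and 20.1% higher. Of 3 other receptors and ligands measured, Notch3, the receptor of mural cells, fell (-2.89 ± 0.72, SE, limma, adjusted p = 0.00787), as did the ligand Dll1 (-2.09 ± 0.57, adjusted p = 0.0122). Notch2 did not pass, at -0.19 ± 0.29 (adjusted p = 0.632). Its level was 558 ± 178 normalised counts in CD_CD, against 490 ± 94 in WD_WD (SD, n = 3). Notch3 is itself 1 of the 4 pericyte markers measured, all of which fell.

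Among 10 genes measured from a list for sugar modification of the receptor and activation of the ligand, 5 fell and 1 rose. The falls included Mfng, a fringe glycosyltransferase (-1.33 ± 0.26, SE, limma, adjusted p = 0.00209), Pofut1, which adds O-fucose (-2.12 ± 0.52, adjusted p = 0.00719), and the endocytic adaptor Epn2 (-2.65 ± 0.60, adjusted p = 0.00454). Neurl3 rose (2.49 ± 0.50, adjusted p = 0.00235), and its part in ligand activation was not tested here. Mib1, Neurl1a and Neurl1b of this list were not among the genes measured. Of 10 protease genes 3 fell and 4 rose. Adam10, the sheddase that cuts the bound receptor, fell (-2.06 ± 0.26, adjusted p = 9.66e-05), and so did Ncstn (-1.41 ± 0.25, adjusted p = 0.000959) and Aph1b (-3.05 ± 0.46, adjusted p = 0.000327) of gamma-secretase. Psenen, another subunit of that enzyme, rose (1.62 ± 0.26, adjusted p = 0.000579).

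In the nucleus 3 of 9 genes of the activating complex fell, Maml2 (-2.96 ± 0.66, SE, limma, adjusted p = 0.00409), Crebbp (-1.51 ± 0.48, adjusted p = 0.0262) and Ep300 (-1.60 ± 0.56, adjusted p = 0.0398). Of 15 co-repressors 3 fell, Ctbp2, Tle1 and Ctbp1, at -1.61, -2.25 and -0.78. Of 11 genes that limit the pathway or turn the receptor over 5 fell, among them Nrarp, itself a Notch target (-1.81 ± 0.31, adjusted p = 0.000865), Nedd4 (-2.68 ± 0.33, adjusted p = 8.49e-05), Dtx3 and Numb. None of the genes in these 3 lists rose. Of 3 other target genes measured Hey2 fell (-3.99 ± 1.20, adjusted p = 0.0202), while Hes1, at 0.34 ± 0.30 (adjusted p = 0.389), and Hes6, at 0.63 ± 0.24 (adjusted p = 0.0557), did not pass. Hes1 was at 2187 ± 1062 normalised counts in CD_CD and 2505 ± 186 in WD_WD (SD, n = 3).

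Further arterial genes moved mostly with the 10 genes: of 22 measured, 15 fell and 2 rose, with a median log2 difference of -2.21. Foxc1 (-4.23 ± 0.64, SE, limma, adjusted p = 0.00035), Ltbp4 (-3.49 ± 0.64, adjusted p = 0.00124) and Nrp1, a co-receptor of VEGF (-2.29 ± 0.29, adjusted p = 0.000111), were among those that fell. Cxcr4, a chemokine receptor of tip cells and arteries that leukocytes also carry, rose (4.61 ± 0.57, adjusted p = 9.72e-05), from 13.3 ± 14.5 normalised counts in CD_CD to 560 ± 160 in WD_WD (SD, n = 3). Of 9 genes measured from the venous list 4 fell, Vwf, Flt4, Tek and Cpe, at -4.004, -3.66, -3.13 and -2.56, and none rose. These do not mark veins alone, since Flt4 is also on the lymphatic endothelial list and Tek on the pan-endothelial list. Nr2f2, Aplnr and Ackr1 of the venous list were not among the genes measured.

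Of 5 other ephrins and Eph receptors 3 fell, Efna5 (-4.80 ± 0.58, SE, limma, adjusted p = 7.68e-05), Epha2 (-1.44 ± 0.49, adjusted p = 0.035) and Efna1 (-1.66 ± 0.59, adjusted p = 0.0431). Efna5 also fell relative to the endothelial markers (-2.45 ± 0.59, adjusted p = 0.0013). Of 3 other connexins and pannexins Gja1, which encodes connexin 43, fell (-2.23 ± 0.47, adjusted p = 0.0029) and Panx1 rose (1.92 ± 0.42, adjusted p = 0.00378). Of 16 genes of the VEGF axis and upstream factors 8 fell and 0 rose, among them Ctnnb1 (-2.26 ± 0.27, adjusted p = 7.68e-05) and Erg (-2.83 ± 0.62, adjusted p = 0.0039). Erg, Fli1, Flt1 and Kdr of these genes are also among the pan-endothelial markers. So are Emcn and Tek of the venous list and Sox18 of the further arterial genes. Relative to those markers, these lists are thus compared partly with themselves. Efna1, Gja1, Nrp1 and Vegfc are also among the further arterial genes, so the counts of these lists are not separate.

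Relative to the endothelial markers most of these lists no longer moved down. Of the 22 further arterial genes 1 fell, Foxc1 (-1.87 ± 0.74, SE, limma, adjusted p = 0.0312), and 3 rose. Of the 9 genes of the venous list 1 fell, Vwf (-1.65 ± 0.53, adjusted p = 0.0102), and 3 rose. Of the 10 proteases 6 rose, of 15 co-repressors 11 and of 16 VEGF and upstream genes 7, with none falling in these 3 lists. Hes1 and Hes6 then rose, at 2.70 ± 0.54 (adjusted p = 0.000261) and 2.99 ± 0.65 (adjusted p = 0.00055), and Hey2 did not pass, at -1.63 ± 0.94 (adjusted p = 0.128). These rises stand against a background of 64.5% of all genes.

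**Figure D5:**
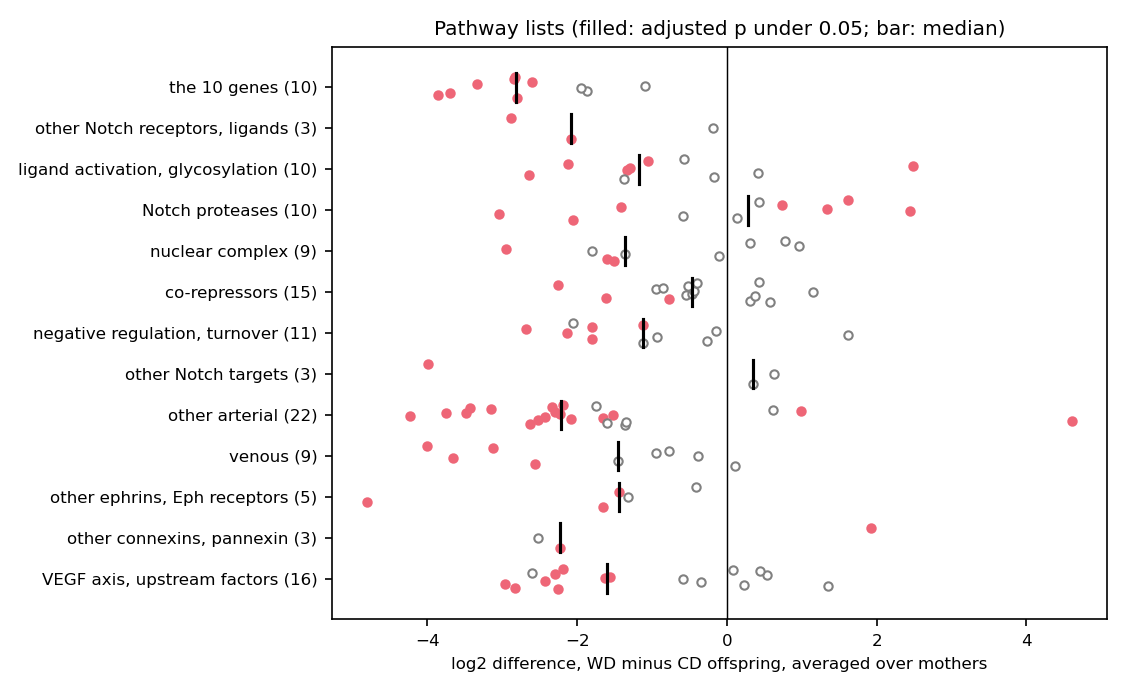
log2 difference between WD and CD offspring, averaged over mothers, on the x axis for each gene of the lists on the y axis (number measured in brackets); filled points passed, bars are medians. The 10 genes have a median of -2.82, the other arterial genes -2.21 and the proteases 0.28.

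The diet of the mother was compared within each diet of the offspring. None of the 10 genes passed in either comparison, and 0 of all 10655 genes did by limma, with 276 at an unadjusted p under 0.05 in CD offspring and 628 in WD offspring. edgeR's quasi-likelihood test on the recovered reads also called 0 genes in both, and DESeq2 called 9 and 14, none of them among the 10 genes. In CD offspring the 10 log2 differences between WD and CD mothers ran from -0.54 (Hey1) to 0.06 (Jag1), with adjusted p of 1.00. Notch4 was the only one of the 10 genes whose libraries did not overlap, at 758 to 881 normalised counts with WD mothers and 960 to 1031 with CD mothers, a difference of -0.31 ± 0.56 (SE). Such a separation towards lower values was seen for 4.87% of all genes.

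In WD offspring the differences ran from -0.90 (Jag1) to 1.20 (Gja4), with adjusted p of 0.867 to 1.00, and no gene of the 10 separated in either direction, against 10% of all genes. Jag1 had 46.2 to 62.2 normalised counts with WD mothers and 48.2 to 261 with CD mothers. The authors' deposited table gives for Jag1 in this comparison a log2 fold change of -1.27, with p = 0.0187 and an adjusted p of 0.403. In the authors' deposited table the other 9 genes have adjusted p of 0.773 or more there, and all 10 are at 1.00 in CD offspring. In the fit here Jag1 was at -1.45 without CD_WD replicate 1 and at -0.24 without CD_WD replicate 3. Several directions in WD offspring turned with CD_WD replicate 1: without it Gja4 was at -0.72, Dll4 at -0.80 and Notch4 at -0.79. The interaction passed for 0 of the 10 genes and 0 of all genes (342 at an unadjusted p under 0.05; edgeR 0, DESeq2 10), with values from -0.96 (Jag1) to 1.60 (Gja4). For Jag1 it moved to -1.51 when CD_WD replicate 1 was left out, and to -0.30 when CD_WD replicate 3 was. Both comparisons of the mother's diet share their libraries with the comparisons of the offspring's diet.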

How the data were processed

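The 12 libraries of total RNA (3 in each of 4 diet groups) were read from 1 deposited table. Per the submitters' processing notes the build is GRCm38 (mm10) and the authors' tools are HISAT2 2.2.1, featureCounts 2.0.1, DESeq2, SAMtools 1.13, Trim Galore 0.6.10 and FastQC 0.12.1, with no settings or order. The authors deposited a normalised signal per gene and library: all 127860 values were whole multiples of the worth of 1 read (tolerance 0.01), with size factors equal to the median of ratios over 9491 genes up to a constant. The lowest value of CD_CD replicate 3 was taken as 3 reads. The same deposited table gives the authors' log2 fold changes, p-values and adjusted p-values for both comparisons of the mother's diet. Because the deposited values were already scaled, the test was limma 3.58.1 (R 4.3.3; trend option) on log2(normalised count + 1), which understates changes of low genes, over all 12 libraries with 1 mean per group. Genes needed a mean of at least 1. Benjamini-Hochberg adjusted p-values over 10655 genes were called under 0.05, and "rose" and "fell" are used only of called genes. The fit was tested on simulated data, with a common dispersion for all genes and libraries and no outlying library. That simulation does not stand for the wider scatter of the WD libraries here. Alternatives were pseudocounts of 0.5 and 8, no filter or a mean of at least 100, quantile normalisation, array weights, the groups of a comparison alone, a replicate block, centring on pan-endothelial genes, edgeR 4.0.16 and DESeq2 1.42.0 on the recovered reads, and libraries left out. Levels were divided by exon length (GENCODE M21) before genes were compared. Named were all 10 genes, up to 4 genes per other list with the smallest p for the averaged offspring diet, and the genes with the lowest SD of the log2 ratio to each member. The 10 genes and all lists were chosen with earlier results of these data known. Other assays of the series text were not analysed here.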

Additional observations from a re-analysis of the deposited data

How the results depend on the processing

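Depth limits the lowest values: in WD offspring 1 read was worth up to 3.96 normalised counts, so that Dll4 in CD_WD replicate 1 rested on 3 reads and Efnb2 in WD_WD replicate 3 on 4. With 3 libraries a group and no batch in the labels, preparation and diet cannot be told apart. Averaged over mothers, 7 of the 10 genes were called at the deposited scaling, and 7 to 9 under every alternative except centring on pan-endothelial genes, which left 1. The cause of the other changes given here was not tested.

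Centring on pan-endothelial genes called 0 of the 10 genes with CD mothers and 0 with WD mothers, where 5 had passed in each. It raised the genes called to 4692 with CD mothers, 4280 with WD mothers and 6918 averaged. It adds the same amount to the difference of every gene, and also changes the scatter within groups. The SE of the averaged difference went from 0.39 to 0.62 for Jag1, and from 0.82 to 0.57 for Gja4. With CD mothers, with WD mothers and averaged, Hey1 turned under centring to 1.44, 1.09 and 1.27. Gja5 turned to 0.76, 0.068 and 0.42. Gja4 turned to 1.15 with WD mothers and 0.49 averaged, and Notch1 to 0.19 with CD mothers. With CD mothers 8 of the 10 genes passed by quantile normalisation and 8 with array weights, which called 4241 genes. Quantile normalisation called 962 genes lower and 1000 higher there, against 591 and 1008 at the deposited scaling.

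Leaving out 1 library at a time gave 4 to 8 of the 10 genes and 698 to 1714 genes with CD mothers (698 and 705 without CD_CD replicates 1 and 2; 8 of the 10 genes without CD_WD replicate 3), and 1593 to 3335 genes with WD mothers (1593 and 1723 without WD_CD replicates 2 and 3). Relative to the endothelial markers it gave 0 to 4 of the 10 genes for the averaged diet, and leaving out CD_WD replicate 1 and WD_CD replicate 3 together gave 4; on this scale both alternatives were chosen after seeing the data. There Notch1 ran from -0.65 to 0.10 and Gja5 from -0.14 to 1.07.

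For the mother's diet in CD offspring 0 to 3 genes were called with 1 library left out (3 without WD_CD replicate 2) and 9 by DESeq2. In WD offspring it was 0 to 10 (10 without WD_WD replicate 1, 1 without CD_WD replicate 1 or WD_WD replicate 3), 14 by DESeq2, 2 with array weights, 1 with centring and 1 without CD_WD replicate 1 and WD_CD replicate 3. The interaction gave 10 genes by DESeq2 and 1 with array weights. None of the 10 genes was called in these comparisons under any setting, and several changed sign. In CD offspring Jag1 ran from -0.15 to 0.27 with 1 library left out, and Notch4 was at 0.055 with centring.

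In WD offspring Notch4, at 0.005 in the fit reported, was at -0.019 with a pseudocount of 8, -0.023 by quantile normalisation, -0.35 by edgeR, -0.31 by DESeq2, -0.68 with array weights and -0.79 without both libraries. Dll4 was at -0.20 by edgeR, -0.13 by DESeq2 and -0.80 without both. Gja4 was at -0.16 by edgeR, -0.11 by DESeq2 and -0.72 without both, and its interaction then at -0.14. With 1 library left out these ran from -0.79 to 0.41 for Notch4, from -0.80 to 1.57 for Dll4 and from -0.72 to 2.48 for Gja4, and the interaction of Gja4 from -0.32 to 2.88.

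Replicate numbers are shared by the titles, but samples with the same number did not deviate together: the 18 correlations ran from -0.232 to 0.074, none over 0.1, and 0 of 12 libraries were closest to their own number. With the replicate block 5, 5 and 7 of the 10 genes were called for the offspring's diet with CD mothers, with WD mothers and averaged, as without it. The block called 3812 genes for the averaged diet and 1 gene for the mother's diet in WD offspring.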
